A study of Mus with 4 samples.

Results

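The Kruppel-like factor transcripts described here were *Klf2*, *Klf3*, *Klf4*, *Klf6*, *Klf7*, *Klf9*, *Klf10*, *Klf11*, *Klf13* and *Klf15*, 10 of the 11431 genes with an m6A peak in either of 2 peak lists from interscapular brown adipose tissue (iBAT). Their peaks were taken by gene name, which gave 30 of 18400 peaks in the *Wtap* flox/flox list and 33 of 18693 in the *Wtap*-BKO list. Every one of the 10 genes had a peak in each list, so there was no member without a peak. The lists come from m6A RNA immunoprecipitation sequencing (MeRIP-seq), in which fragmented poly(A)+ RNA is pulled down with an m6A antibody and a stretch with more reads than the input RNA is listed as a peak. The control group was C57BL/6 mice with the floxed *Wtap* allele and no Cre, and the knockout group carried the same floxed allele with the *Ucp1*-iCre transgene. Both groups were on normal chow and were 8 weeks old. The iCre is driven by *Ucp1*, so *Wtap* stays intact in cells of the tissue that do not express *Ucp1*. Each list rests on 1 immunoprecipitate and 1 input, each pooled from 8 mice. With 1 pool per genotype there are no replicates, and no difference between genotypes was tested.

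Kruppel-like factors are transcription factors that bind GC-rich and CACCC DNA elements through zinc fingers at the carboxyl end, and they take part in a cascade that switches the adipocyte program on or holds it back. WTAP is a subunit of the nuclear complex that writes m6A on mRNA, and m6A can change how long a transcript lasts and how well it is translated. In the family, *Klf2*, *Klf4*, *Klf6* and *Klf7* encode proteins of the activator type, *Klf3* encodes a repressor that binds CtBP, *Klf9*, *Klf10*, *Klf11* and *Klf13* encode proteins that bind the corepressor Sin3A, and *Klf15* stands apart from these classes. The values given for a peak are its fold enrichment, its false discovery rate and its rank. The fold enrichment is the authors' ratio of immunoprecipitate over input within 1 genotype, the log10 false discovery rate is the authors' measure of confidence, and the rank is the share of peaks in the same list that are weaker. Ranks are by false discovery rate unless fold enrichment is named. The lists were made separately, so fold enrichments may not share a scale between them, and ranks are set side by side as well. Transcript levels and read totals are not in the lists, so a change in methylation, in the amount of a transcript or in the number of cells that make it cannot be told apart.

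Of the 30 *Wtap* flox/flox peaks on these transcripts, 25 shared at least 1 exonic base with a *Wtap*-BKO peak (83.3%, 95% Wilson interval 66.4% to 92.7%). The other 5 had none on them, or 16.7%, beside 32.2% of all *Wtap* flox/flox peaks. In the other direction 28 of 33 *Wtap*-BKO peaks were found in the control list (84.8%, interval 69.1% to 93.3%). The 5 that were not found make 15.2%, beside 32.0% of all *Wtap*-BKO peaks. The intervals treat peaks as independent, although peaks of 1 transcript share it, and they cover counting error only. The presence of all 10 genes in both lists stands beside 70.1% of all genes with a peak. This comparison is not like for like, as the members were chosen with earlier results of these data known. Each member also had at least 2 peaks in each list, beside a mean of 1.89 control and 1.92 knockout peaks per gene with a peak.

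The peaks missing from one list lay on 5 of the 10 genes. A control peak without a knockout peak on it occurred on *Klf3*, *Klf9*, *Klf11* and *Klf13*, 4 of 10 genes, beside 46.1% of all genes with a control peak and 55.3% of genes with the same range of 2 to 4 control peaks. A knockout peak without a control peak on it occurred on *Klf3*, *Klf7* and *Klf13*, 3 of 10 genes, beside 47.7% of all genes with a knockout peak and 57.6% of those with 2 to 5. On *Klf2*, *Klf4*, *Klf6*, *Klf10* and *Klf15* each peak of either list was found in the other.

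**Figure D1:**
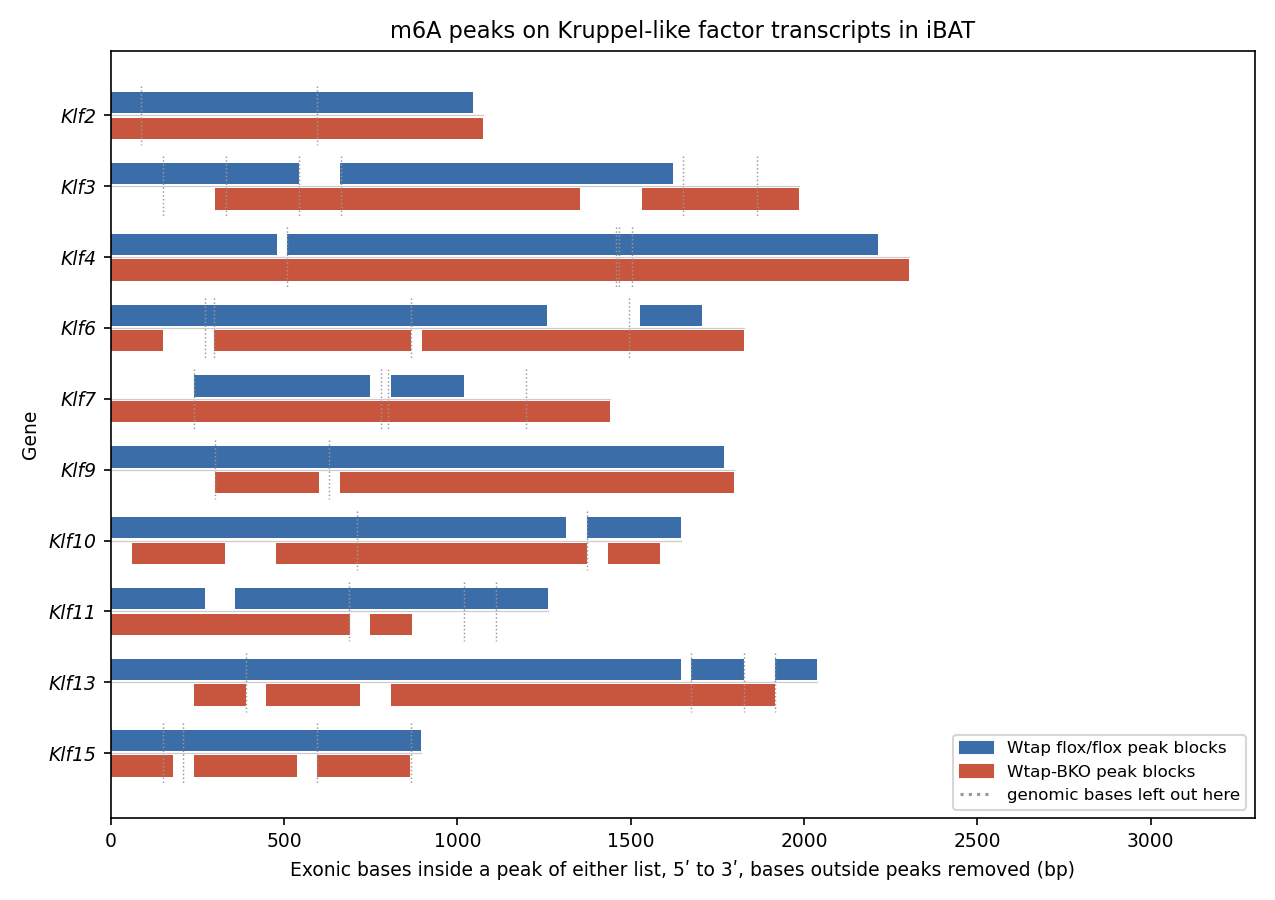
Peak blocks on each transcript, drawn 5ʹ to 3ʹ along the exonic bases that lie in a peak of either list (x axis, bp), with bases outside peaks removed at the dotted lines; bars that touch can be separate peaks. Upper bars are *Wtap* flox/flox and lower bars *Wtap*-BKO. *Klf2* and *Klf4* are covered almost throughout by both lists, *Klf7* has knockout peaks at both ends without a control peak, and *Klf11* has 2 control peaks at the 3ʹ end without a knockout peak.

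*Klf2* (ENSMUSG00000055148, plus strand of chromosome 8 of GRCm38) encodes a factor known for the quiescent state of endothelial cells and for holding back adipogenesis. Its transcript carried 2 peaks in each list. The first ran from 72319063 to 72319934 in blocks of 87 and 509 bases with the same edges in both lists. It had a fold enrichment of 5.95 in the control and 7.02 in the knockout list, and ranks by false discovery rate of 90.1% and 91.7%. The second began at 72320822 in both lists and covered 448 bases in the control and 478 in the knockout list. Its false discovery rate is given as 0 in both, so this pair has no order by that value. Its fold enrichments of 13.2 and 11 were higher than those of 79.7% and 80.0% of their lists. *Klf2* thus had the closest match of any member, with 97.2% of the bases covered by either list covered by both.

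*Klf4* (ENSMUSG00000003032, minus strand of chromosome 4), which encodes a reprogramming factor that acts early in adipogenesis, carried 3 peaks in each list and matched closely as well. The peak nearest the 5ʹ end of the gene ended at 55532466 and covered 479 bases in the control and 509 in the knockout list. Its ranks by false discovery rate were 56.7% and 81.6%. By fold enrichment it went the other way, with 11 and 5.39 and ranks of 71.6% and 56.1%. The middle peak, from 55529875 to 55530947, had identical blocks and the same fold enrichment of 4.79 in both lists, with log10 false discovery rates of −35.6 and −59.4. The peak nearest the 3ʹ end covered 748 and 837 bases, from 55527591 and from 55527502 to 55529755. Its fold enrichments were 13.9 and 13.7, and its log10 false discovery rates were −115 and −216. Every control base on *Klf4* lay inside a knockout peak.

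*Klf6* (ENSMUSG00000000078, plus strand of chromosome 13), whose product represses the preadipocyte gene *Dlk1*, carried 4 peaks in each list. All 4 were found in the other list, but their sizes differed. The strongest, from 5864757 to 5865324, had the same 568 bases in both lists, with fold enrichments of 13.3 and 10.1 and log10 false discovery rates of −92.3 and −153. The first peak covered 299 bases in 2 blocks in the control list and 150 bases of its first block in the knockout list. The peaks nearer the 3ʹ end were larger in the knockout list. The third covered 390 bases in the control and 599 in the knockout list, and its rank by false discovery rate was 71.1% and 90.1%. The fourth covered 180 and 330 bases, and its rank was 14.9% in the control and 75% in the knockout list, the widest gain among the overlapping pairs of the family.

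*Klf7* (ENSMUSG00000025959, minus strand of chromosome 1), whose product is known to hold back adipogenesis, had 2 control and 4 knockout peaks. Both control peaks lay wholly inside knockout peaks. The peak that ended at 64079290 covered 509 bases with a fold enrichment of 8.54 in the control list, and 539 bases with 17.6 in the knockout list. The other control peak, from 64035544 to 64035754, was enriched 25.5-fold, and the knockout peak over it covered 420 bases with 11. The log10 false discovery rates of this pair were nearly equal, −12.5 and −12.2, with ranks of 62.3% and 68.7%. The knockout peaks without a control peak covered 240 bases each. One, from 64120944 to 64121183, lay 1281 bp from the 5ʹ end of the gene and had a rank of 18.1%. The other, from 64029925 to 64030164, lay 597 bp from the 3ʹ end and had a rank of 35.9%. *Klf7* had the largest difference in covered bases among the 10 genes, 720 in the control and 1439 in the knockout list.

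*Klf3* (ENSMUSG00000029178, plus strand of chromosome 5), the CtBP-binding repressor of adipogenesis, had 3 control and 5 knockout peaks and the least even match apart from *Klf7*. The covered totals were nearly equal, 1502 and 1504 bases, but 51.5% of the bases covered by either list were covered by both. The control peak from 64803538 to 64803688, with its centre 92 bp from the 5ʹ end of the gene, had no knockout peak on it. It shared 134 bases with a control peak of an unnamed gene (ENSMUSG00000097640) on the opposite strand, so its assignment to *Klf3* is uncertain. The middle peak covered 391 bases in the control and 241 in the knockout list, and both ended at 64823089. The last control peak, from 64827268 to 64829933, covered 960 bases with a fold enrichment of 4.40 and had 2 knockout peaks on it. The larger of these covered 810 bases with a fold enrichment of 11.5, and its log10 false discovery rate was −39.1, beside −24.1 for the control peak. The smaller covered 121 bases with −2.21. A further 2 knockout peaks, of 211 and 121 bases, lay nearer the 3ʹ end with no control peak on them, and their log10 false discovery rates were −6.87 and −2.31.

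*Klf9* (ENSMUSG00000033863, plus strand of chromosome 19) encodes a factor that is induced by glucocorticoid and thyroid hormone. It had 3 control and 2 knockout peaks. The first control peak, from 23141286 to 23141585, lay 210 bp from the 5ʹ end of the gene with a fold enrichment of 2.73 at a log10 false discovery rate of −7.26, and no knockout peak lay on it. The next, from 23141765, covered 330 bases in the control and 300 in the knockout list, with ranks of 94.4% and 94.5%. The largest peak covered 1138 bases in both lists, shifted by a small step so that 1108 were shared. Its fold enrichments were 11.4 and 10.2. Its false discovery rate is given as 0 in the control list, and its log10 was −125 in the knockout list. The main peaks of *Klf9* were thus in both lists and only the weakest was in the control list alone.

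*Klf10* (ENSMUSG00000037465, minus strand of chromosome 15), an early response gene of TGF-beta signaling, had 2 control and 3 knockout peaks, and all were found in the other list. The main control peak, from 38295561 to 38297324, covered 1314 bases with a fold enrichment of 6.07 at a log10 false discovery rate of −76.4. In its place the knockout list had a peak of 897 bases with 3.84 and −25.6, and a peak of 269 bases with 2.74 and −9.51. The peak nearest the 3ʹ end covered 270 bases in the control and 150 in the knockout list, with log10 false discovery rates of −10.4 and −5.01. Each of the 3 overlapping pairs on *Klf10* ranked lower in the knockout list by both false discovery rate and fold enrichment.

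*Klf11* (ENSMUSG00000020653, plus strand of chromosome 12), a relative of *Klf10* known to act with PPARγ in adipocytes, had 4 control and 2 knockout peaks. The strongest control peak, from 24655450 to 24660515, covered 327 and 333 bases on either side of a gap of 4406 genomic bases, and its fold enrichment was 11 at a log10 false discovery rate of −40.8. A knockout peak from 24655091 to 24660186 covered its first block, reached 4 bases past the gap, and also lay over the control peak of 271 bases upstream. Its fold enrichment was 5.34 at a log10 false discovery rate of −17.2. Beyond the gap the knockout list had a peak of 121 bases with −3.71, inside the 333 bases of the control block. The control peaks from 24661083 to 24661173 and from 24661472 to 24661622 had no knockout peak on them. They were weak, with log10 false discovery rates of −2.19 and −3.53. On *Klf11*, then, the knockout list held the whole of the control bases upstream of the gap and little of the part downstream of it.

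*Klf13* (ENSMUSG00000052040, minus strand of chromosome 7), known for its part in lymphocyte and heart development, had 4 control and 5 knockout peaks. Its main control peak, from 63890295 to 63891550, covered 1256 bases with a fold enrichment of 18.5 at a log10 false discovery rate of −129. The knockout list had 2 peaks there, of 868 bases with 11.7 and −106, and of 270 bases with 4.91 and −24.7. Their ranks by false discovery rate were 97.8% and 84.1%, beside 96.9% for the control peak. The peak that began at 63938198, near the 5ʹ end of the gene, covered 389 bases in the control and 150 in the knockout list. By contrast, the peak from 63889996 to 63890146 had the same edges in both lists, with log10 false discovery rates of −3.60 and −3.62. The control peak of 120 bases from 63886710, 419 bp from the 3ʹ end of the gene, and the knockout peak of 91 bases from 63889100 each had no counterpart. Their log10 false discovery rates were −5.07 and −6.90.

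*Klf15* (ENSMUSG00000030087, plus strand of chromosome 6) encodes a factor induced by glucocorticoid and fasting that governs glucose, lipid and amino acid metabolism. It had 3 peaks in each list, each was found in the other, and each was shorter in the knockout list. The first, from 90462576, covered 209 bases in the control and 179 in the knockout list. Its control fold enrichment of 41.2 was the highest of any peak of the family and higher than that of 98.8% of the control list, and in the knockout list it was 12.1, higher than that of 82.6%. By false discovery rate it was the weakest *Klf15* peak in each list, with log10 values of −11 and −4.93 and ranks of 59.0% and 41.2%. The second covered 387 and 298 bases, with fold enrichments of 9.35 and 3.92 and log10 false discovery rates of −73.4 and −20.6. The third, from 90467254, covered 298 and 268 bases, with 7.14 and 4.63 and with −51.1 and −29.9. No knockout base on *Klf15* lay outside a control peak.

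By covered bases the 10 genes fell into 2 sets of 5. *Klf2*, *Klf3*, *Klf4*, *Klf6* and *Klf7* had more peak bases in the knockout list, by 30, 2, 119, 210 and 719 bases. *Klf9*, *Klf10*, *Klf11*, *Klf13* and *Klf15* had fewer, with differences of −330, −268, −362, −386 and −149 bases. A lower total in the knockout list was found for 53.2% of the 8014 genes with peaks in both lists, and the median difference over them was −30 bases. By class, which was set beside these values after they had been seen, the 4 activator-type genes had 5385 control and 6463 knockout bases, and the 4 Sin3A-binding genes had 6441 and 5095. The difference of *Klf3* changed sign with the threshold, to −240 bases when a false discovery rate under 1e-05 was required in both lists. At that threshold the difference of *Klf7* fell from 719 to 239 bases, below the 539 of *Klf6*, as neither knockout peak at the ends of *Klf7* passed it.

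Most bases that were not shared belonged to peaks with a counterpart in the other list. Over the family 11769 bases were shared, 82.8% of the 14222 control bases and 85.2% of the 13807 knockout bases. Over all peaks of the series these shares were 61.3% and 67.6%. Of the 2453 bases in the control list only, 813 belonged to peaks with no counterpart. Of the 2038 bases in the knockout list only, 903 did. Per gene, the median share of control bases also covered in the knockout list was 81.5%, beside 72.3% over all genes with peaks in both lists.

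**Figure D2:**
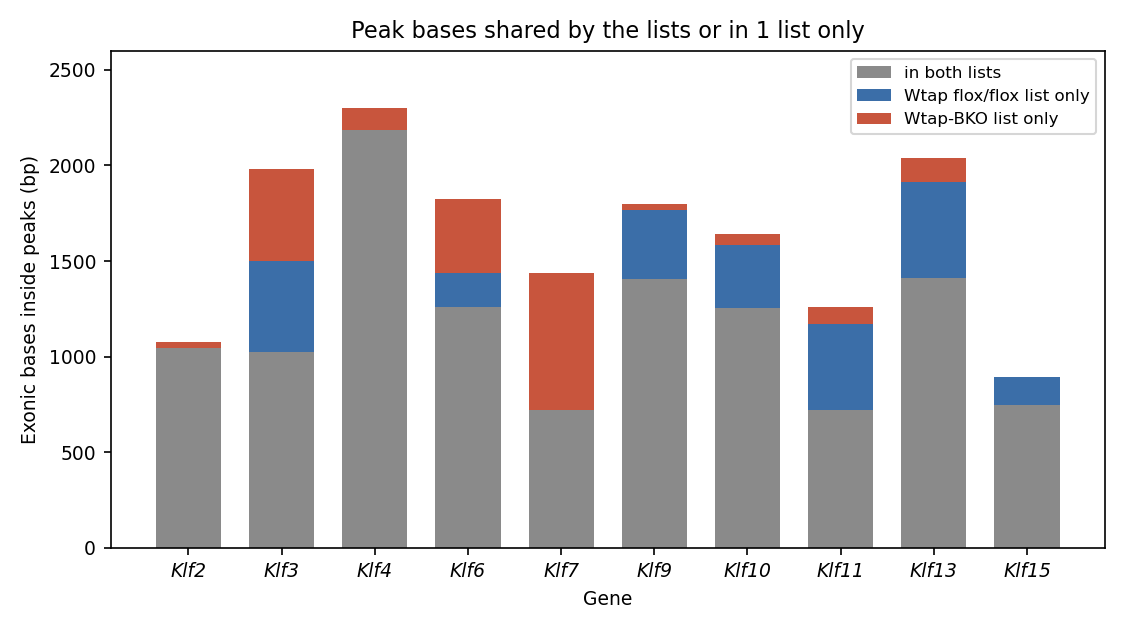
Exonic bases inside peaks for each gene (bars start at 0, y axis in bp), divided into bases in both lists (grey), in the *Wtap* flox/flox list only (blue) and in the *Wtap*-BKO list only (red). *Klf15* has no base in the knockout list only, *Klf2*, *Klf4* and *Klf7* have none in the control list only, and *Klf7* has 719 bases in the knockout list only.

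The ranks of overlapping peaks were compared next. The 25 control peaks found in the knockout list formed 29 overlapping pairs, since some had more than 1 knockout peak on them. By false discovery rate, 12 of 29 pairs ranked lower in the knockout list, beside 46.5% of the 13772 pairs of the series. By fold enrichment 16 of 29 ranked lower, beside 51.1%. Pairs of the family thus lay on both sides of equal rank, near the shares over all pairs. Their median rank difference, knockout minus control, was 0.873 percentage points by false discovery rate and −2.50 by fold enrichment. Over all pairs the medians were 1.11 and −0.611 percentage points.

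Within the family the genes differed. Of the 11 pairs on *Klf2*, *Klf4*, *Klf6* and *Klf7*, 10 ranked higher in the knockout list by false discovery rate and 1 was at 0 in both. By fold enrichment 7 of these 11 ranked higher and 4 lower. Of the 12 pairs on *Klf9*, *Klf10*, *Klf11* and *Klf13*, 8 ranked lower by false discovery rate and 8 by fold enrichment. All 3 pairs on *Klf15* ranked lower by both. On *Klf3*, 2 of 3 pairs ranked higher by each. Pairs on 1 transcript share its reads, so these counts describe 10 transcripts in 2 pools and the differences between the sets of genes were not tested. The sets were formed after the covered bases of these same peaks had been seen, so the ranks are not independent of them.

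**Figure D3:**
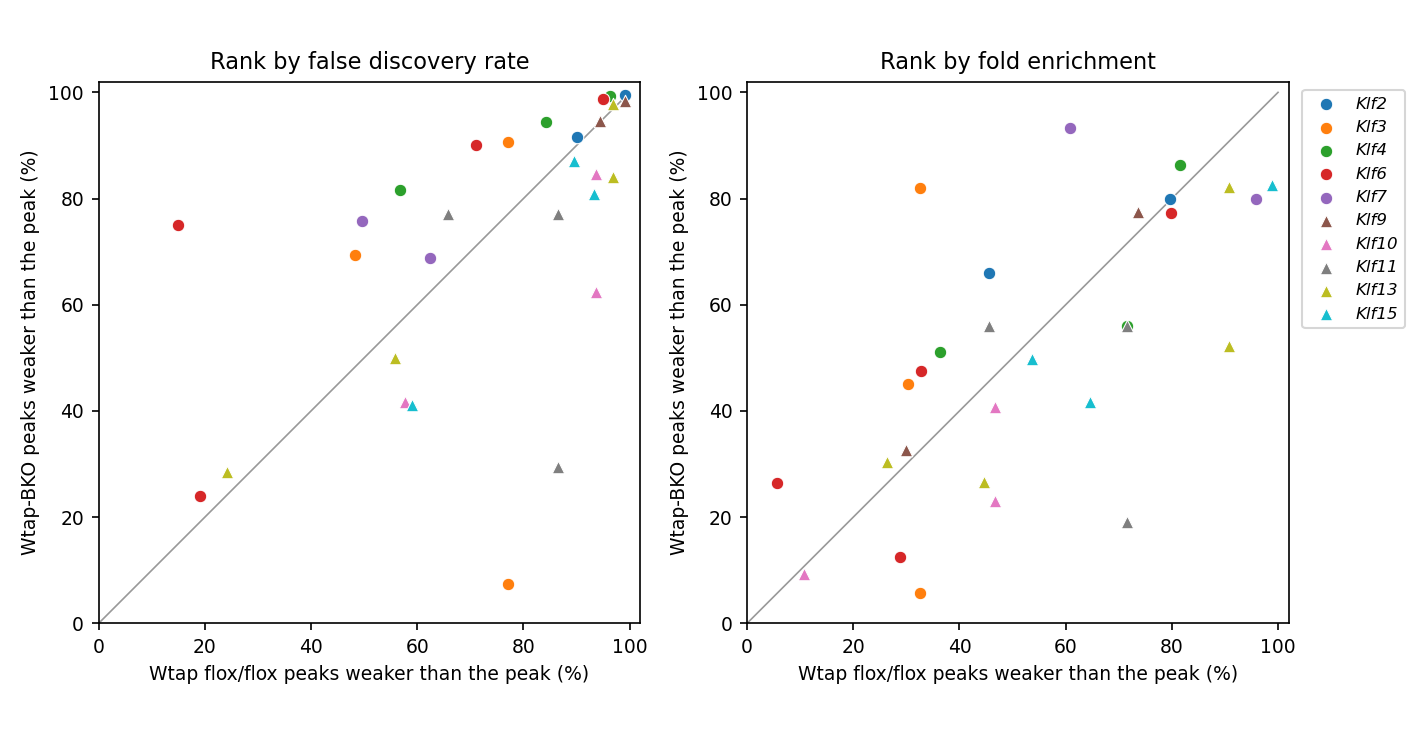
Rank of each of the 29 overlapping pairs in its own list, as the percentage of peaks in the list that are weaker, in *Wtap* flox/flox mice (x axis) and *Wtap*-BKO mice (y axis), by false discovery rate (left) and by fold enrichment (right). The line marks equal ranks, circles are *Klf2*, *Klf3*, *Klf4*, *Klf6* and *Klf7*, and triangles are the other genes. The circles are the genes with more peak bases in the knockout list, so these sets were made from the same peaks. On the left the circles lie above or on the line apart from 1 *Klf3* pair, and 11 of 15 triangles lie below it.

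The peaks of the family were longer and more confident than the typical peak. The median control peak covered 388 bases, beside 240 over the whole control list, and the median knockout peak covered 298 bases, beside 210. The median log10 false discovery rate was −13.45 in the control and −16.1 in the knockout list, beside −7.75 and −6.30. Fold enrichment went the other way, with a median of 5.88 beside 6.58 in the control list and of 4.40 beside 4.65 in the knockout list. Each list was divided by false discovery rate into 5 bins of equal size. The strongest bin held 12 control and 15 knockout peaks of the family, and each was found in the other list. Over all genes, 9.46% of control and 2.51% of knockout peaks of that bin were not. The peaks of the family that were not found all lay in the 3 weakest bins, where 32.0% to 58.6% of all control peaks and 33.0% to 63.7% of all knockout peaks were not found either.

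Some control peaks had more than 1 knockout peak on them. This was so for 4 of 30, 1 each on *Klf3*, *Klf10*, *Klf11* and *Klf13*, or 13.3%, beside 6.08% of all control peaks. They covered 660 to 1314 bases, and the other 3 control peaks of at least 660 bases, on *Klf4* and *Klf9*, had 1 knockout peak each. Exact matches also occurred, with identical blocks in both lists for 1 peak each on *Klf2*, *Klf4*, *Klf6* and *Klf13*. These were 4 of the 25 control peaks found, or 16.0%, beside 7.09% over all control peaks found.

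Gaps between the blocks of a peak are stretches of the gene left out of it, as where a transcript joins exons. The family had 10 control and 9 knockout peaks of 2 blocks, with 11 different gaps. Of these, 8 had the same edges in both lists, on *Klf2*, *Klf3*, *Klf4*, *Klf10*, *Klf11* and *Klf15*. The gaps of 1715 bases on *Klf6* and of 6559 bases on *Klf15* were in the control list only, and the gap of 6161 bases on *Klf7* was in the knockout list only. Over all peaks, 1983 of 6165 gaps were in both lists.

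The position of each peak was taken from its centre. Of 30 control peaks, 7 had their centre at most 1000 bp from the start of the RefSeq gene (23.3%), beside 11.4% of all control peaks inside their gene, and at most 1000 bp from its 3ʹ end were 3 of 30 (10%), beside 22.9%. In the knockout list these were 5 of 33 (15.2%, beside 12.7%) and 4 of 33 (12.1%, beside 20.5%). With a window of 2000 bp there were 9 and 6 of 30 control peaks (30% and 20%, beside 15.9% and 39.5% of all). In the knockout list there were 8 and 5 of 33 (24.2% and 15.2%, beside 17.4% and 36.3%). With 500 bp there were 4 and 1 of 30 control peaks (13.3% and 3.33%, beside 8.21% and 11.9%). The knockout list had 2 and 0 of 33 within 500 bp (6.06% and 0%, beside 9.51% and 10.2%). The higher 5ʹ share in the knockout list thus depended on the window. The windows were chosen with the peaks in view, and the gene table used gives no stop codons.

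Of 16 other genes of the KLF and SP family, 6 had peaks in both lists, 1 in the knockout list only and 9 in neither. *Klf5*, which acts early in adipogenesis, and *Klf14* were among the 9 with no peak. *Klf8*, a CtBP-binding relative of *Klf3*, had 1 knockout peak of 121 bases with a log10 false discovery rate of −2.12 and no control peak. *Klf16*, which binds Sin3A, had 1 peak in each list, of 180 bases in the control and 90 in the knockout list. *Sp3*, a widely expressed factor for GC-rich promoters, had the most, with 4 control peaks, all found, and 6 knockout peaks, and its relatives *Sp1* and *Sp4* had 2 in each list. Of the 11 control peaks on the 16 genes 10 were found in the knockout list, and of 14 knockout peaks 10 were found in the control list. Over all peaks of the series, 67.8% of control and 68.0% of knockout peaks were found in the other list.

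Among 10 genes of proteins that Kruppel-like factors work with, 7 had peaks in both lists, 1 in the control list only and 2, the histone deacetylase gene *Hdac1* and the acetyltransferase gene *Kat2b*, in neither. *Sin3b* had the control-only peak, of 151 bases with a log10 false discovery rate of −3.74. *Sin3a*, which encodes the corepressor bound by the *Klf9* class, had 3 peaks in each list, and all were found in the other. The acetyltransferase genes *Ep300* and *Crebbp* had 5 and 4 control peaks and 4 and 4 knockout peaks. Of 18 control peaks on the 10 genes 14 were found, and of 16 knockout peaks 14, beside 67.8% and 68.0% over all peaks.

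The number of peaks on markers of other cell types differed between the lists. *Klf2* and *Klf4* are known from endothelial cells. Over the series, 9732 genes had a control peak and 9713 a knockout peak, of 11431 genes with a peak in either list. Endothelial markers had 20 control and 27 knockout peaks, on 9 and 12 of 12 genes, and those without a control peak were *Tie1*, *Emcn* and *Egfl7*. Fewer knockout than control peaks were listed for *Flt1*, with 6 and 4, and for *Erg*, with 2 and 1. Both nevertheless had more covered bases in the knockout list, *Flt1* with 1142 control and 1591 knockout bases and *Erg* with 1406 and 1554. Macrophage markers had 8 and 20 peaks on 6 and 9 of 10 genes, with *Adgre1* at 0 in both lists. Lymphocyte markers had 0 and 4 peaks on 0 and 4 of 10 genes, and the T cell receptor complex genes *Cd3e*, *Cd3d* and *Cd3g* were among those at 0 in both. Smooth muscle markers had 9 and 16 peaks, skeletal muscle markers 2 and 10, and fibroblast markers 11 and 12. Brown adipocyte markers had 34 control peaks on 12 of 12 genes and 28 knockout peaks on 11, *Elovl3* having none there. This fall in peak number rested on *Prdm16*, which had 8 control peaks and 1 knockout peak, and without it the list had 26 and 27. Of the *Prdm16* control peaks 3 were found in the knockout list, and its covered bases were 1746 and 1230. More knockout than control peaks were listed for 4 of the 12 genes, *Ucp1*, *Ppargc1a*, *Plin1* and *Fabp4*, and fewer for 3. Covered bases did not follow peak number. They were fewer in the knockout list for *Dio2*, *Prdm16*, *Ppargc1a*, *Elovl3*, *Plin1* and *Ebf2*. More were covered there for *Ucp1*, *Cidea*, *Cox8b*, *Cox7a1* and *Fabp4*, and *Adipoq* had 854 in each list. The part of these differences in the values of the Kruppel-like factors was not tested.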

How the data were processed

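The authors made MeRIP-seq libraries from iBAT of both genotypes, 4 sequenced samples in all, with paired reads of 150 bp. Groups were taken from the sample titles. The submitters' processing notes name fastp 0.19.11, BWA 0.7.12, HOMER 4.9.1 and GRCm38.p6, and the methods name MACS2 for peak detection. The lists have spliced blocks on Ensembl genes, a layout that the R package exomePeak also writes. The authors' threshold was a false discovery rate under 0.05. The deposited p-value of each peak, the deposited scores (log10 values of p and of the false discovery rate) and the deposited ratio of immunoprecipitate over input, called fold enrichment, are the authors' values. How the ratio was scaled for library size is not given in the sources used here. Read depth is unknown.

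Peaks were matched by at least 1 shared exonic base on the same strand with Python 3.11.15, using scipy 1.17.1, numpy 2.4.6 and, for the plots, matplotlib 3.10.9. Starts were made 1-based. Positions are on GRCm38, and all 63 peaks of the family lay inside their RefSeq gene of GRCm38.p6. Simulated data from the 18400 control peaks were used to test the matching. Each peak was scored only against its own altered or removed copy, and this was right for all 18400. Of the removed peaks, 162 still lay on another listed peak, and the rule used for the counts would call these found. The genes named were all 10 members, and from the other family genes and cofactors those with peaks in 1 list only and those with the most control peaks. *Klf5*, *Klf14*, *Klf16*, *Hdac1*, *Kat2b* and the cell type markers were named after their values were seen. The members and lists were chosen with earlier results of these data known. Sequences and motifs were not analysed here. The alternatives were another overlap rule, strand ignored, stricter thresholds, merged neighbouring peaks and members matched by identifier.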

Additional observations from a re-analysis of the deposited data

How the results depend on the processing

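Over the family, the counts of peaks found, of peaks, and of genes with a peak not found stayed within 1.5 times their value with at least 50% of the bases shared, with strand ignored, with peaks up to 100 bases apart merged, with members matched by Ensembl identifier, and with peaks under a false discovery rate of 1e-05, whether in both lists or in the list counted only. Counts for single genes moved more, 8 of 40 under 1e-05 in both lists, 7 under 1e-05 in the list counted, 3 with merging and 21 under 1e-10, all downward. Under 1e-05 *Klf3* had 3 knockout peaks in place of 5, *Klf7* 2 in place of 4 and *Klf11* 1 in place of 2, and *Klf6* and *Klf11* had 2 control peaks each in place of 4. All 10 genes kept a peak in both lists under false discovery rates of 1e-05 and 1e-10. The other alternatives drop no peak, so they could not change this count. When any peak of the same gene counted as found, the genes with a control peak not found fell from 4 to 0 and those with a knockout peak not found from 3 to 0, because each gene had peaks in both lists. Under a false discovery rate of 1e-10 in both lists there were 18 control and 20 knockout peaks, 16 and 16 of them were found, and genes with a peak not found went from 4 to 2 for control and from 3 to 4 for knockout peaks. In an alternative chosen after seeing the data, the difference in covered bases on *Klf3*, 2 bases more in the knockout list, became −240 under 1e-05 and 91 under 1e-10, and the other 9 genes kept their sign under both. Their sizes did not hold. Under 1e-05 the differences of *Klf6*, *Klf7*, *Klf11* and *Klf15* became 539, 239, −241 and −328, and those of *Klf6*, *Klf11* and *Klf15* were the same under 1e-10, where *Klf4*, *Klf9*, *Klf10* and *Klf13* became 598, −30, −687 and −118. No paired analysis was possible because each genotype had 1 pool, and no replicate could be left out. Read depth is unknown and limits which weak peaks either list could hold.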
